A study of Homo sapiens with 32 samples.

Results

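Human MCF10A cells carrying an edited *JUNB* locus were compared between 72 h and 24 h of TGFβ1 treatment. The comparison was defined by the labels of the count table: every *JUNB* mut library of 72 h was set against every *JUNB* mut library of 24 h. It holds 8 of the 32 libraries of the series, 4 per time, matched by cell clone and by replication. MCF10A is a non-tumorigenic human mammary epithelial line with basal features. The mut libraries came from the single-cell clones 1 and 65, which the labels call *JUNB* KO and which received CRISPR/Cas9 editing at *JUNB*. WT libraries came from the clones 27 and 2 of the same line. Each clone was treated in 2 replications with TGFβ1 at 5 ng/ml for 6, 24 or 72 h, or with solvent, which the labels give as time 0. A clone and replication is called a series here, so that 1-2 is clone 1 in replication 2. The study renewed TGFβ1 during the longest treatment. By the study's description the solvent libraries had solvent for 72 h, and cultures of every treatment time were collected at the same time after plating, so that the 24 h libraries received TGFβ1 later in culture than the 72 h libraries. The duration of TGFβ1 and the age of the culture when it was added cannot be told apart in any value below. With 2 edited clones, what belongs to a clone and what belongs to the editing cannot be told apart either. The study describes the replications as independent biological ones. The p-values measure the spread between libraries, estimated over all 32, with the 2 replications of a clone counted apart.

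TGFβ1 binds a receptor pair of serine/threonine kinases that phosphorylate SMAD2 and SMAD3, which then enter the nucleus with SMAD4. In mammary epithelial cells the pathway restrains cell division and drives epithelial-mesenchymal transition (EMT), in which junctions and keratins give way to a fibronectin-rich matrix. JUNB is a subunit of the dimeric transcription factor AP-1, which SMAD complexes often meet at the same enhancers, and its gene is itself an early target of TGFβ1.

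Depth was similar in the 8 libraries, at 41483904 to 54438689 counted reads, so that 3 counts, taken as the detection floor, corresponded to 0.0551 to 0.0723 CPM, the unit of all levels below, in which each library is scaled to the same total. Mitochondrial genes took 1.76 to 2.41% of the counts. No 2 libraries agreed within sampling noise. The library mut 72 h 65-2 stood furthest from the others of its time, with a chi-square per degree of freedom of 55.1 to 79.4, while the other 72 h libraries lay 15.7 to 55.2 apart and the 24 h libraries 20.7 to 34.7. In a principal component analysis of the 8 libraries, the first component (22% of the variance) separated the clones and the second (21.6%) the times. On the second, the 24 h libraries lay at -31.2 to -11.5 and the 72 h libraries at 1.13 to 37.8, with 65-2 lowest among them. Series 1-2 also stood apart outside the comparison: its solvent library had 87.5 CPM of *POSTN*, against 0.466 to 2.51 in the other mut solvent libraries, and 1413 CPM of *FN1* against 248.6 to 373. That library is outside the comparison but enters the fit through the term of its series and the estimate of the spread. Without it and the solvent library of WT series 27-2, the median log2 change from 24 h to 72 h over all genes was 0.0111, against 0.0117. Counts without series 1-2 or without library 65-2 of 72 h are given below for all genes and for some of the lists. Markers of basal mammary epithelium summed to 23200 to 26200 CPM at 24 h and 21400 to 26700 CPM at 72 h. Luminal epithelial markers summed to 305 to 383 and 314 to 377 CPM, with *KRT8* at 129 to 184 and *KRT18* at 134 to 168 CPM. Markers of other cells summed to less. Fibroblast markers gave 33.8 to 47.9 and 43.1 to 53.2 CPM. *COL1A1* had 14.9 to 19.8 and *DCN* 18.3 to 33.5 CPM, with *COL3A1* and *THY1* at or under the floor. Leukocyte markers gave 18.3 to 20.9 and 16.4 to 23.7 CPM. *CD68* had 8.17 to 11.3 and *CD14* 7.27 to 13.4 CPM, with *PTPRC* and *CD3E* at or under the floor. Endothelial markers gave 19.3 to 24.8 and 15.9 to 22.7 CPM, with *KDR* at 13.1 to 23 CPM.

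*JUNB* (ENSG00000171223, GRCh38 chromosome 19, 12791486 to 12793315, plus strand) was itself lower at 72 h. It had 253, 254, 380 and 518 CPM at 24 h in series 1-1, 1-2, 65-1 and 65-2, and 122.5, 234, 228 and 359 CPM at 72 h. All 4 series fell. The groups overlapped, with clone 65 above clone 1 at 24 h. The log2 change was -0.61 ± 0.16 (SE; adjusted p = 0.0147, limma). WT cells went from 248.5 to 297 CPM to 163 to 175 CPM (-0.68 ± 0.16), and the test of the difference between the changes did not pass (0.07, adjusted p = 0.943). *JUNB* reads in edited clones do not check the labels, since an edited gene can still be transcribed. The gene overlaps *HOOK2* on the other strand, and the library kit did not keep strand.

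Of 14865 genes tested, 1404 differed between 72 h and 24 h in the mut libraries (9.45%). The later time had the greater level for 693 genes (4.66%) and the smaller for 711 (4.78%). The change was at least 2-fold for 169 of them, and the median over all genes was 0.01 on the log2 scale. The model held each series as a replicate block. With no replicate block, the model of the study, 195 genes were called (1.31%), all of them among the 1404. With the clone alone as the block the count was 441. The count was 408 in a fit of the 8 libraries alone and 617 with the replications of a clone summed. Without series 1-2 it was 1276, of which 879 were among the 1404 in the same direction, and without the library 65-2 of 72 h it was 1421, of which 1033 were. The count was 719 without the library 1-1 of 72 h, 750 without that of 24 h and 871 without the library 65-1 of 72 h. In 1277 of the called genes (91%) all 4 pairs moved one way, against 25.7% of all genes. The 72 h libraries lay wholly above or below the 24 h libraries for 830 called genes and for 1478 of all genes (9.94%). The calls were made on these same pairs and favour such genes, so that neither share is separate support for them.

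The 12 genes that rose most, among those with at least 10 CPM on average and the same direction in all pairs, were *POSTN*, *KCNJ15*, *FN1*, *FAM167A*, *FSTL1*, *PRSS23*, *CCBE1*, *FBN1*, *IGFL2-AS1*, *VEGFC*, *DKK1* and *PRR5L*. Of these, *POSTN*, *FN1* and *FBN1* belong to the matrix list given below. *POSTN* (GRCh38 chromosome 13), the matricellular protein periostin, had 54.15, 19.4, 129 and 106 CPM at 24 h and 323, 377, 450 and 537 CPM at 72 h in series 1-1, 1-2, 65-1 and 65-2. No 24 h library reached the lowest 72 h library, and the log2 change was 2.76 ± 0.46 (adjusted p = 0.000348). *FN1*, fibronectin, rose from 3437, 1534, 2225 and 2297 CPM to 7766, 9096, 5529 and 3988 CPM, by 1.46 ± 0.39 (adjusted p = 0.0169). *KCNJ15*, an inward rectifier potassium channel, went from 15.35, 6.85, 17.5 and 16.5 CPM to 38.6, 48.3, 36.1 and 36.9 CPM (1.64 ± 0.29). In all 3 genes series 1-2 was lowest at 24 h. *FSTL1*, a secreted follistatin-like protein, went from 21.5 to 45.1 CPM to 72 to 93.3 CPM (1.295 ± 0.20), and *FBN1*, fibrillin-1 of the microfibrils, from 4.27 to 8.93 CPM to 11.2 to 17.9 CPM (1.09 ± 0.20). *CCBE1* and *VEGFC*, a matrix protein and the lymphatic growth factor that it helps to activate, rose by 1.23 ± 0.22 and 0.99 ± 0.18. *DKK1*, a secreted WNT antagonist, rose by 0.96 ± 0.20, and its groups overlapped through 65-2. In 22 of the 24 genes that rose or fell most, the pair with the largest change was 1-2, against 523 of the 1404 called genes (37.3%) and 30.9% of all genes.

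**Figure D1:**
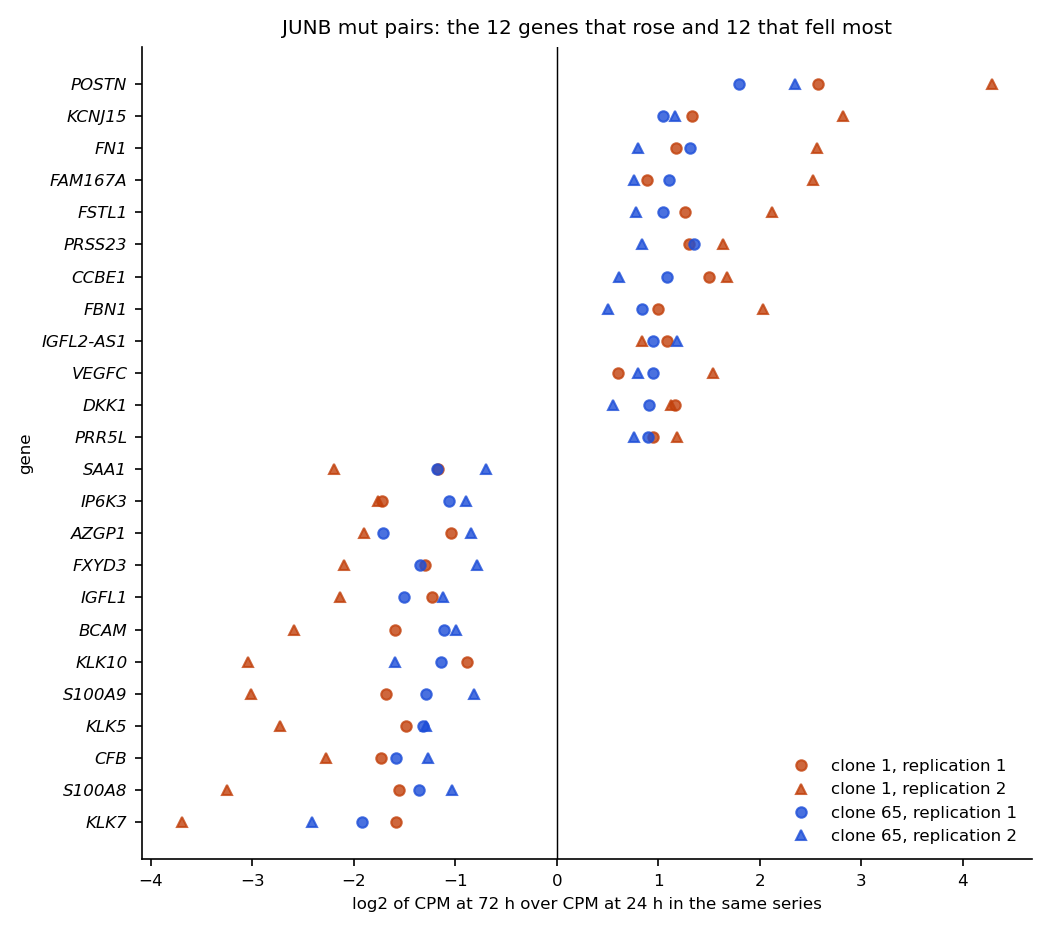
Log2 ratio of CPM at 72 h over CPM at 24 h within each series, for the 12 genes that rose and the 12 that fell most in *JUNB* mut cells. Colour marks the clone and shape the replication. All 4 points of each gene lie on one side of 0 by the rule that chose the genes. The pair of clone 1 in replication 2 is the farthest from 0 in 22 of the 24 genes.

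Each list count below stands beside the 9.45% of all genes that were called, 4.66% higher and 4.78% lower. A count near those shares says nothing particular about its list. Across the matricellular and fibrillar matrix list, 7 of 27 tested genes rose and 3 fell (median log2 change 0.10). With no replicate block 2 rose and 1 fell, and without the library 1-2 of 24 h 4 rose. Besides *POSTN*, *FN1* and *FBN1*, those that rose were *TGFBI*, *EFEMP1*, *SPARC* and *MFAP5*. *TGFBI*, a secreted integrin ligand named for its induction by TGFβ, went from 2004 to 3303 CPM to 3293 to 5327 CPM (0.82 ± 0.20, adjusted p = 0.00989). The 3 that fell were *BGN*, *TNC* and *SPOCK1*. *BGN*, the proteoglycan biglycan, had 73.7, 50.7, 48.9 and 45 CPM at 24 h and 26.9, 21.6, 23.3 and 24.9 CPM at 72 h, with no overlap (-1.16 ± 0.11, adjusted p = 5.44e-07). *TNC*, tenascin C, went from 95, 71.2, 46.9 and 74.4 CPM to 37.4, 47.7, 25 and 38 CPM (-0.94 ± 0.20), and fell in every series, with groups that overlapped slightly. *TNC* overlaps *DELEC1* and *BGN* overlaps *HAUS7* on the other strand. Of 20 collagen chains tested, *COL8A1* and *COL12A1* rose (0.61 ± 0.13 and 0.45 ± 0.13) and none fell. Of 18 collagen processing enzymes, *LOXL2*, *P3H1*, *PLOD1* and *PCOLCE2* rose and *P3H2* and *P4HA2* fell. *P3H2*, a collagen prolyl 3-hydroxylase, went from 78.6 to 118.5 CPM to 55.7 to 71.1 CPM (-0.57 ± 0.07). Of 25 proteases and inhibitors, 5 rose and 3 fell, but 2 rose without the library 1-2 of 24 h and 1 with no replicate block. *SERPINE2*, protease nexin-1, rose from 72.45 to 119.8 CPM to 147.5 to 211 CPM (0.89 ± 0.21), *TIMP3*, an inhibitor of metalloproteases, by 0.42 ± 0.08, and *SERPINB5*, maspin, fell by 0.33 on the log2 scale.

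The 12 genes that fell most, with the same limits of at least 10 CPM on average and one direction in all pairs, were *KLK7*, *S100A8*, *CFB*, *S100A9*, *KLK5*, *KLK10*, *BCAM*, *IGFL1*, *FXYD3*, *AZGP1*, *IP6K3* and *SAA1*. The kallikreins and S100 genes among them, 5 of the 12, belong to the squamous list given below. *KLK7* (ENSG00000169035), a kallikrein protease of shedding squamous epithelium, had 63.2, 78.7, 44.6 and 44.4 CPM at 24 h and 21.1, 6.1, 11.8 and 8.315 CPM at 72 h in series 1-1, 1-2, 65-1 and 65-2. The groups did not overlap, and the log2 change was -2.31 ± 0.29 (adjusted p = 1.68e-05). *KLK5* and *KLK10*, from the same gene cluster on chromosome 19, went from 15 to 33.2 CPM to 5 to 7.04 CPM and from 20.5 to 59.5 CPM to 7.2 to 15.7 CPM (-1.725 ± 0.26 and -1.65 ± 0.35). *S100A8* and *S100A9* encode the subunits of calprotectin. *S100A8* went from 45.5, 93.7, 44.8 and 49.2 CPM to 15.5, 9.85, 17.5 and 24 CPM (-1.84 ± 0.28), and *S100A9* from 138, 283, 118 and 130 CPM to 42.7, 34.9, 48.4 and 73.6 CPM (-1.725 ± 0.26). Library 1-2 was highest at 24 h and lowest at 72 h for both. *CFB* and *SAA1*, complement factor B and an acute phase apolipoprotein, fell by 1.745 and by 1.32 on the log2 scale, and reads of *SAA1* can be divided with its near copies. *BCAM*, a laminin receptor, fell from 39.6 to 69.2 CPM to 11.5 to 23.8 CPM (-1.58 ± 0.17) and was called also with no replicate block (adjusted p = 1.42e-05).

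Over the squamous differentiation and S100 list, 17 of 26 tested genes fell and none rose, with a median log2 change of -1.32. The share called lower among all genes was 4.78%. The count was 13 without series 1-2 and 16 without library 65-2 of 72 h, but 0 with no replicate block and 0 with the clone alone as the block. Members that fell also included *SPRR1B*, a precursor of the cornified envelope, at 4.725 to 8.69 CPM and then 0.716 to 1.65 CPM (-2.61 ± 0.41), *SLPI*, a secreted protease inhibitor, at 111 to 143 and then 52.4 to 82.3 CPM (-0.98 ± 0.10), and *S100A2* at 3518 to 4172 and then 2456 to 3809 CPM (-0.43 ± 0.09). Reads of *SPRR1B* and *SPRR1A* can be divided between near copies. *KLK8*, *S100A7*, *SPRR1A* and *LCN2* fell as well, all from under 3 CPM.

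Promoters of this list were read for the motif of AP-1, of which JUNB is a subunit. The motif TGANTCA, searched on both strands in the 250 bases before the RefSeq start of each gene, was in 8 of the 19 promoters of the list that the table holds (42.1%) and in 514 of 11690 promoters of tested genes (4.4%). Those of 3 genes that fell are given here over the last 120 bases before the start, 5′ to 3′ on the gene's strand, with the motif in capitals. They lie at chr1:153031083-153031202 (*SPRR1B*, plus strand), chr1:153565845-153565964 (*S100A2*, minus strand) and chr9:128149333-128149452 (*LCN2*, plus strand) of GRCh38.p14.
SPRR1B: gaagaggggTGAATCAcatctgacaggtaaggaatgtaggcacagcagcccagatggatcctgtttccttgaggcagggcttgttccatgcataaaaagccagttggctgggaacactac
S100A2: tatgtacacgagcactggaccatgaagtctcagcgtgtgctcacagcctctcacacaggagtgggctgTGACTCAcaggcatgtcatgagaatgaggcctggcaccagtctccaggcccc
LCN2: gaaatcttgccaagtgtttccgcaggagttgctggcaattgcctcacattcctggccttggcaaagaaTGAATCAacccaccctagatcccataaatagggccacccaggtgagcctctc
A match is a run of letters and not a measured site of binding. In WT cells 9 genes of this list fell and 2 rose over the same interval (median log2 change -0.533). Whether the motif has to do with the fall was not tested.

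In the lists of junction and keratin genes every called gene was lower at 72 h. In the epithelial adhesion and splicing list 14 of 22 genes fell and none rose (median -0.28). *CDH1*, E-cadherin of the adherens junction, had 402, 438.5, 371 and 377 CPM at 24 h and 249.8, 247.5, 227 and 248 CPM at 72 h, with no overlap (-0.71 ± 0.09, adjusted p = 1.225e-05). *CLDN7*, a tight junction claudin, went from 94.4 to 145 CPM to 48.4 to 82.2 CPM (-1.04 ± 0.14), and *OCLN*, occludin, from 12.6 to 18.6 CPM to 5.59 to 9.16 CPM (-1.09 ± 0.20). *EPCAM* did not pass, at 33.1 to 47.1 and 34.2 to 46.4 CPM. The count of this list was 11 without series 1-2, ranged from 8 (without the library 1-1 of 72 h) to 13 over the fits that each left out 1 of the 8 libraries, and was 0 with no replicate block or the clone alone as the block. In the keratin and desmosome list 11 of 24 fell and none rose (median -0.32). *KRT17*, a basal keratin, had 4140, 4513, 4031 and 4381 CPM at 24 h and 2037, 2302, 1985 and 2987 CPM at 72 h (-0.89 ± 0.12, adjusted p = 1.87e-05), while *KRT5* and *KRT14* had log2 changes of -0.06 and 0.10 and did not pass. Keratin genes share sequence, so that reads can be divided among *KRT14*, *KRT16* and *KRT17*. The desmosomal genes *DSP*, *DSG3*, *DSC2*, *DSC3*, *JUP*, *PKP2* and *PPL* fell by 0.37 to 0.69 on the log2 scale. That count was 7 without series 1-2 and 1 with no replicate block.

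Among the transcription factors of EMT, 4 of 17 fell and none rose, all of them genes of the epithelial side. The count was also 4 without series 1-2 and without library 65-2 of 72 h, but 1 with the clone alone as the block and 0 with no replicate block. *GRHL3*, a grainyhead factor, went from 37, 51.4, 35.15 and 33.3 CPM to 20.45, 17.2, 20.3 and 15.3 CPM (-1.10 ± 0.15, adjusted p = 3.96e-05). *GRHL1*, *ELF3* and *OVOL1* fell from under 5 CPM. The factors that repress epithelial genes did not pass: *SNAI1* had 3.42 to 4.55 and then 2.84 to 4.35 CPM, *ZEB1* 7.83 to 9.72 and then 7.09 to 12.4 CPM, and *SNAI2*, *ZEB2* and *TWIST1* changed by 0.17, -0.13 and 0.06 on the log2 scale. Of 18 mesenchymal and contractile genes tested, *VIM*, the intermediate filament vimentin, rose from 1027 to 1172 CPM to 1241 to 1444 CPM (0.28 ± 0.07, adjusted p = 0.0151) and *TNS1*, an actin-binding protein of focal adhesions, fell (-0.61 ± 0.12). *CDH2*, N-cadherin, had 57.4 to 86.2 and then 87.9 to 102 CPM, did not overlap and did not pass (0.30 ± 0.11, adjusted p = 0.0908).

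Cell cycle genes were higher at 72 h. In the mitosis and G2/M list 28 of 40 genes rose and none fell, with a median log2 change of 0.32, and all 40 were positive. In the DNA replication and G1/S list 11 of 35 rose and none fell (median 0.31), with all 35 positive. *CENPA*, the histone of the centromere, had 16.75, 20.55, 21.1 and 17.3 CPM at 24 h and 27.6, 32.3, 27.3 and 27.1 CPM at 72 h (0.60 ± 0.09, adjusted p = 9.26e-05). *CKS2*, a subunit of cyclin-dependent kinases, had 30.8, 34.6, 36.1 and 32.6 and then 53.7, 47.3, 53.3 and 41.5 CPM (0.55 ± 0.09), and *CCNB1*, cyclin B1, 118 to 155 and then 157 to 201 CPM (0.38 ± 0.08). *E2F1* and *GINS2*, of entry into and progress through replication, rose by 0.53 ± 0.12 and 0.55 ± 0.12, while *MCM2*, of the replicative helicase, missed the threshold (0.31 ± 0.10, adjusted p = 0.0548). *MKI67* did not pass: it was 152 to 179 CPM at 24 h, 209.8 to 233 CPM in 3 libraries of 72 h and 103 CPM in 65-2. The mitotic count was 35 without library 65-2 of 72 h, 28 without series 1-2, 12 without the library 1-1 of 24 h, 13 with the clone alone as the block and 2 with no replicate block. The replication count was 18 without library 65-2 of 72 h, 16 without series 1-2 and 1 with no replicate block, and ranged from 5 (without the library 1-1 of 24 h) to 22 over the fits that each left out 1 of the 8 libraries. Of 22 G1 regulators and p53 targets, *CDK2*, *CDK4* and *CCND1* rose (0.30, 0.17 and 0.28) and *CDKN1C*, the cyclin-dependent kinase inhibitor p57, fell from 16.1 to 37.8 CPM to 9.88 to 13.4 CPM (-1.17 ± 0.16). *CDKN1A*, encoding p21, did not pass, at 318 to 390.3 and 337 to 414 CPM. Of 27 ribosome biogenesis genes, *NOP2* and *NOP58* rose and none fell.

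Mitotic promoters often carry the CHR element next to CCAAT boxes, and both were looked up in the same 250 bases. CHR, the letters TTTGAA on either strand, was in 18 of 32 promoters of the mitosis list (56.2%), in 1 of 30 of the replication list (3.33%) and in 8.89% of promoters of tested genes. CCAAT was in 75% of the mitosis list, 60% of the replication list and 34.4% of all. Promoters of 4 genes that rose are given as above, with CHR and CCAAT in capitals on either strand. The CCAAT boxes of *CENPA* lie further upstream. They lie at chr15:59105026-59105145 (*CCNB2*), chr1:43358861-43358980 (*CDC20*), chr2:26785936-26786055 (*CENPA*) and chr9:89311075-89311194 (*CKS2*), all on the plus strand.
CCNB2: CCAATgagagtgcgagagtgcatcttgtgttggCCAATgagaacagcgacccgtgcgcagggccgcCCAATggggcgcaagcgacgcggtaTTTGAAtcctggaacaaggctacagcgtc
CDC20: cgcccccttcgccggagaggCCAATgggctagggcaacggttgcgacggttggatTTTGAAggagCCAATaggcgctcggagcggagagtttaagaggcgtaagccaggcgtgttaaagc
CENPA: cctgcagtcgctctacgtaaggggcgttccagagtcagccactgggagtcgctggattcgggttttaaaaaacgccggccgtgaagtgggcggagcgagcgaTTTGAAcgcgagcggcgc
CKS2: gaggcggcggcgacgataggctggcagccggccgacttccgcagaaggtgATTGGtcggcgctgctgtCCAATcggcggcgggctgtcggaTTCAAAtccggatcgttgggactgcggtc
*CCNB2* went from 33.3 to 39.8 CPM to 44.6 to 49.5 CPM (0.35 ± 0.07) and *CDC20*, an activator of the anaphase-promoting complex, from 33.6 to 45.9 CPM to 44.4 to 58.95 CPM (0.42 ± 0.105).

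Of 24 ligands, receptors and SMADs of the TGFβ pathway, 3 rose and 2 fell, with a median log2 change of 0.00145, while 9.45% of all genes were called. The receptor *TGFBR2* rose from 378 to 402 CPM to 391 to 536 CPM (0.27 ± 0.07), the co-receptor *ENG*, endoglin, from 69.7 to 82.1 CPM to 90.9 to 101 CPM (0.35 ± 0.07), and *FSTL1* as given above. The activin receptor *ACVR1B* and the activin antagonist *FST* fell (-0.25 ± 0.06 and -0.86 ± 0.20). Of 17 early targets and feedback genes, the corepressor *TGIF2* rose (0.43 ± 0.10) and *ID2* fell from under 2 CPM. *SMAD7*, the inhibitory SMAD, had 21.7 to 26.3 and then 19.6 to 25.4 CPM, and *SKIL* 130.6 to 169.7 and then 132 to 190.3 CPM, and neither passed. *ID1*, an inhibitor of basic helix-loop-helix factors, had 121 to 171 and then 103 to 142 CPM without passing (-0.22 ± 0.08).

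In the AP-1 family, 1 of 18 genes rose and 3 fell. *FOSL1*, encoding FRA-1, rose from 67.2 to 78.8 CPM to 76.8 to 105 CPM (0.28 ± 0.08, adjusted p = 0.0296). *JUNB*, *FOS* and *FOSL2* fell, *FOS* from 29.2 to 41.3 CPM to 21.6 to 28.1 CPM (-0.43 ± 0.11) and *FOSL2* by 0.26 on the log2 scale. *JUN* had 238, 221, 199.6 and 234 CPM and then 173, 262, 152 and 178 CPM, and did not pass. None of the 4 was called with no replicate block, and without series 1-2 none rose and 6 fell. Of 19 immediate early and ERK feedback genes, *EGR1*, *EGR2* and *KLF6* fell and none rose. *EGR1* had 305 to 400.4 and then 183.5 to 363 CPM (-0.40 ± 0.12). The counts of this list moved under several settings. Without library 65-2 of 72 h 3 genes rose and 1 fell, and without series 1-2 none rose and 6 fell. By edgeR 1 fell, and with no replicate block 0 were called. Of 10 genes of the EGF receptor family and its ligands, *AREG*, amphiregulin, rose (0.28 ± 0.08), while *EGFR* had 285.5 to 393 and then 199 to 370.5 CPM. Of 19 YAP and TEAD targets, *ANKRD1* rose and *PTPN14* fell, but without library 65-2 of 72 h 4 rose and 0 fell.

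Of 15 genes of MHC class I and antigen processing, 6 fell and none rose, with a median log2 change of -0.09 and 4 of the 15 above 0, among them *HLA-B*, *HLA-C*, *HLA-E*, *HLA-F* and *ERAP1*. *HLA-B*, a heavy chain of MHC class I, had 104, 132, 102 and 113 CPM at 24 h and 70.4, 64.6, 77.8 and 90.6 CPM at 72 h (-0.58 ± 0.10, adjusted p = 0.000726). *HLA-C*, *HLA-E* and *HLA-F* fell by 0.23 to 0.40 on the log2 scale, and their reads can be divided among these similar, polymorphic genes. The count was 3 without series 1-2, 3 without the library 1-1 of 24 h, 5 without library 65-2 of 72 h and 2 with no replicate block. Of 35 interferon-stimulated genes, *IRF1* and *SAMD9L* fell and none rose. Of 27 inflammatory cytokine genes, *IL1RN*, *NFKBIZ* and *CSF1* fell and none rose. Of all genes tested, 9.45% were called and 4.78% were called lower. *CXCL8* had 7.49 to 12 and then 5.335 to 15.8 CPM, and *CXCL1* 9.39 to 14.2 and then 7.64 to 13.6 CPM.

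Of the metabolic and stress lists, fatty acid synthesis had 4 of 11 genes called, sterol synthesis 3 of 23, and NRF2 and antioxidant genes 3 of 26, against 9.45% of all genes. Of 23 sterol synthesis genes, *SREBF2*, the transcription factor of the pathway, fell from 469 to 498 CPM to 395 to 406 CPM (-0.27 ± 0.05), with *FDPS* and *SQLE*, and none rose. *HMGCS1*, of the first steps of the pathway, had 151 to 215 and then 94.8 to 242 CPM. Of 11 fatty acid synthesis genes, the desaturases *FADS1* and *FADS2* and *ME1* rose and *SCD5* fell (-0.52 ± 0.10). None of 22 ATF4 stress genes was called by limma, edgeR or DESeq2, with 0 at an unadjusted p under 0.05 by limma and a median of -0.15, against 4.66% higher and 4.78% lower over all genes, but 8 fell and 1 rose without series 1-2. Of 26 NRF2 and antioxidant genes, *FTL*, the ferritin light chain, rose and *MT1X* and *ABCC3* fell. Of 30 glycolysis and hypoxia genes, *TPI1* rose and *CA12* and *PFKL* fell, a share near the 9.45% of all genes. Of 32 WNT and NOTCH genes, *DKK1*, *WNT5A* and the receptor *FZD2* rose (0.96, 0.96 and 0.79) and *NOTCH3* fell, from 9.715 to 13.4 CPM to 2.85 to 3.5 CPM (-1.88 ± 0.215). Of 20 growth factors and IGF-binding proteins, *VEGFC*, *IGFBP7*, *IGFBP6* and *NOG* rose and *IGFBP2* and *IGFBP4* fell. *IGFBP7* had 178 to 215 and then 261 to 337 CPM (0.65 ± 0.08). Of 21 integrins and laminins, *ITGB5* rose (0.29 ± 0.08) and *ITGB3* fell (-1.32 ± 0.27), again near the share of all genes. Of the 44 list counts above 0, taken by list and direction, 41 moved by over 1.5 times with no replicate block, 18 without series 1-2 and 32 when some 1 of the 8 libraries was left out.

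Set beside the earlier times, the genes of this comparison had followed different courses. *POSTN* had 0.627 to 7.43 CPM at 6 h, 19.4 to 129 CPM at 24 h and 323 to 537 CPM at 72 h, and *FN1* 369.7 to 759, 1534 to 3437 and 3988 to 9096 CPM. *S100A8* had 111 to 188 CPM in solvent, 97.2 to 133 CPM at 6 h, and less at each later time. *CDH1* stayed within 371 to 454 CPM from solvent to 24 h and was at 227 to 250 CPM at 72 h. *KRT17*, *BGN*, *TNC* and *JUNB* were higher at 24 h than in solvent in every series and lower at 72 h than at 24 h. *BGN* had 15.4 to 21 CPM in solvent, 45 to 73.7 CPM at 24 h and 21.6 to 26.9 CPM at 72 h. *CENPA* had 23.4 to 28.6 CPM in solvent, 16.8 to 21.1 CPM at 24 h and 27.1 to 32.3 CPM at 72 h, and *CCNB1* 189 to 207, 118 to 155 and 157 to 201 CPM. *KANK4*, *LBH* and *RDH16* were under 4 CPM in solvent, reached 13.1 to 19.4, 16.1 to 24.4 and 13.6 to 19.7 CPM at 24 h, and had 7.98 to 16.2, 9.71 to 15.2 and 10.3 to 17.45 CPM at 72 h, where none passed. These values share the 24 h libraries and are given as levels, with no test.

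WT cells were compared over the same interval with other libraries. There 2588 genes differed (17.4%), and 694 genes were called in both genotypes in the same direction, 49.4% of the mut calls and 26.8% of the WT calls, while 15 were called in opposite directions. Of the 1404 mut calls, 1266 (90.2%) had the same sign in WT, against 68.3% of all genes. In WT all 40 mitotic genes rose, with a median log2 change of 0.60 against 0.32 in mut, and 34 of 35 replication genes, with a median of 0.77 against 0.31. The ATF4 stress genes had 14 of 22 lower in WT. In the test of the difference between the changes, 4 of the 35 replication genes passed with a lower change in mut, and 2 of the 22 ATF4 genes with a higher one. Of the replication genes 28 had an unadjusted p under 0.05 by limma, and 13 passed by DESeq2 and 0 with no replicate block. Among 26 NRF2 and antioxidant genes, 13 fell and none rose in WT, and 6 passed that test with a higher change in mut. That count was 5 by edgeR and by DESeq2, 1 with the clone alone as the block and 0 with no replicate block. None of the 40 mitotic genes passed by limma, with 25 at an unadjusted p under 0.05, 1 passed by edgeR and 2 by DESeq2. Over all genes 120 passed that test (0.807%), 70 with a higher change in mut and 50 with a lower one. With no replicate block 1 gene passed, with the clone alone as the block 7, and without series 1-2 76. *ELF3*, an epithelial transcription factor, was among them, with -1.78 in mut and 0.72 in WT (adjusted p = 0.00574). Among the 120, 64 were called in WT alone, 34 in mut alone and 22 in both.

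*KLK5*, *KLK7* and *KLK10* fell in mut and were not called in WT. *KLK7* had 187, 1.55, 38.9 and 10.8 CPM at 24 h in WT series 27-1, 27-2, 2-1 and 2-2, and 142.5, 1.66, 56.5 and 9.19 CPM at 72 h, a wider spread of levels than in the mut libraries. Its difference of changes was -2.275 (adjusted p = 0.00601). *KLK5* and *KLK10* gave -2.27 (adjusted p = 0.000393) and -2.38 (adjusted p = 0.0133), and *IGFL1*, a secreted insulin growth factor-like protein that rose in WT, -2.19 (adjusted p = 0.000152). *IL32*, a cytokine gene, had a log2 change of -0.56 in mut, which did not pass, and rose by 0.89 in WT (difference -1.45, adjusted p = 0.0102). *HLA-B* fell by 0.58 in mut, had 0.20 in WT, and differed (adjusted p = 0.0101). In the other direction, *AKR1C1* and *AKR1C2*, aldo-keto reductases, had 86.9 to 98.5 and then 105.8 to 132 CPM, and 329.8 to 402 and then 377 to 493 CPM in mut, without passing. In WT they fell from 29.2 to 93.9 to 19 to 47.4 CPM and from 112 to 235 to 51.35 to 106 CPM. The differences were 1.24 (adjusted p = 0.000265) and 1.30 (adjusted p = 5.93e-05), and reads of this near-identical pair can be divided between them. *TMEM156* rose in mut from 1.71 to 3.15 CPM to 3.77 to 8.06 CPM, against 11.6 to 22.2 and then 12.7 to 19.15 CPM in WT (difference 1.40, adjusted p = 0.0101). *BGN* fell in both, and in WT further, from 4.73 to 15.1 CPM to 0.352 to 3.73 CPM (difference 1.575, adjusted p = 0.0158), and *RDH16*, a retinol dehydrogenase, fell in WT from 6.94 to 16.6 CPM to 2.14 to 5.56 CPM (difference 1.19).

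**Figure D2:**
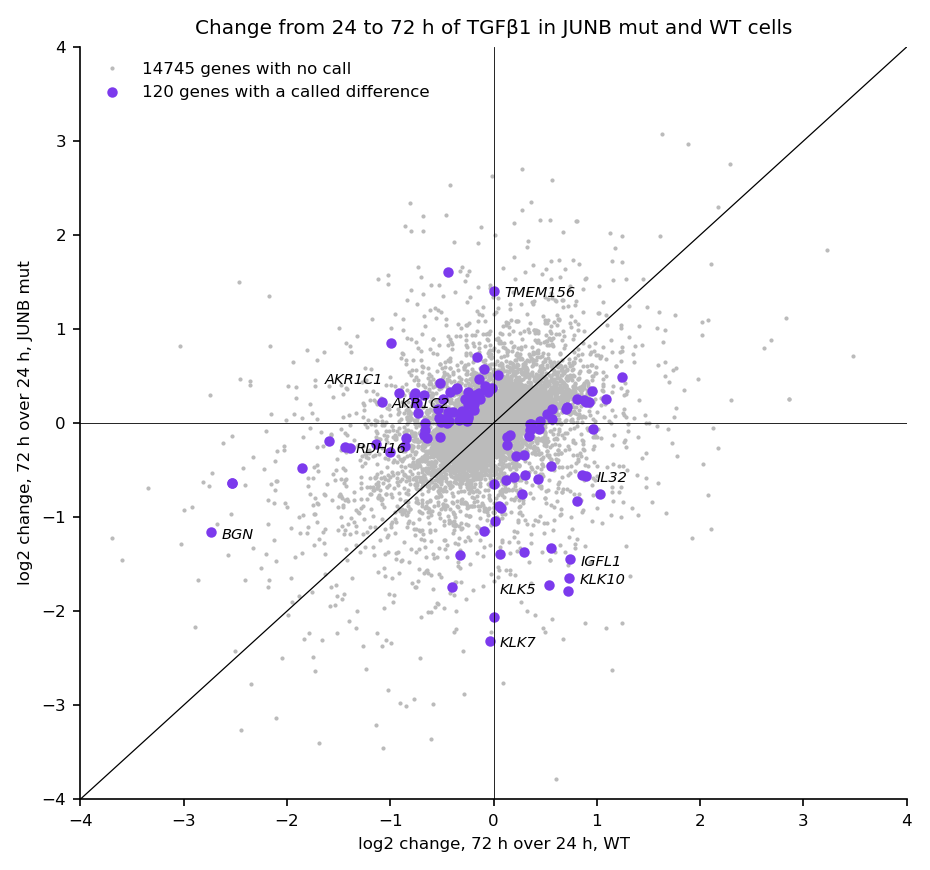
Log2 change from 24 h to 72 h in *JUNB* mut cells (vertical) against that in WT cells (horizontal), 1 point per tested gene, with the 120 genes whose changes differed in colour and the 10 named ones labelled. The diagonal marks equal change. *KLK5*, *KLK7*, *KLK10* and *IGFL1* lie below it and *BGN*, *AKR1C1*, *AKR1C2* and *TMEM156* above it.

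The change of each edited clone was also fitted as a term of its own, with 2 pairs per clone. Both terms came from fits over all 32 libraries that share an estimate of the spread. The calls of the 2 clones are therefore not separate analyses. Clone 1 gave 683 called genes (4.59%) and clone 65 gave 764 (5.14%). Of these 231 were shared, 33.8% and 30.2%, all in the same direction, and 98.1% of the calls of clone 1 had the same sign in clone 65 and 93.8% of those of clone 65 in clone 1, against 67.2% of all genes. The difference between the clones' changes passed for 0 genes (0%) by limma, edgeR and DESeq2, with 1394 at an unadjusted p under 0.05 by limma. Without the library 65-1 of 72 h it was 716, and 0 to 3 without any other of the 8 libraries. Changes of *POSTN* were 3.26 in clone 1 and 2.30 in clone 65, of *S100A8* -2.36 and -1.25, of *KLK7* -2.20 and -2.45, of *CDH1* -0.73 and -0.68, and of *CENPA* 0.64 and 0.55. *MYO7B*, a myosin gene, stayed at 0.776 to 2.15 CPM over the 8 libraries and had -0.36 in clone 1 and 0.87 in clone 65, where neither the pooled change (0.15 ± 0.37) nor the difference passed.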

How the data were processed

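The deposited values were raw counts per gene, which the authors made by trimming with Trimmomatic and by mapping and counting with STAR on GRCh38. The kit kept no strand, and the strand setting of the counting is not given in the sources used here. All 32 libraries were used, and no column was left out (0 unused). Depth, 41483904 to 54438689 counts in the 8 libraries, limits counting error only.

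Of 17788 identifiers, 17763 were in GENCODE release 44, from which symbols and positions came. Genes were kept by edgeR filterByExpr (4.0.16, minimum count 10, minimum total 15). Counts were scaled by library size and tested with limma voom (3.58.1, R 4.3.3) over 32 libraries, with genotype and time terms and each series as a block. Adjusted p-values are Benjamini-Hochberg over all 14865 genes, and genes under 0.05 were called. The study's model had no such block, and a refit made here without it called 195 genes. The block by series was kept since the comparison was defined as matched by clone and replication. A block by clone alone called 441 genes. Deviations of matched 24 h and 72 h libraries correlated at 0.202, 0.0753, 0.22 and 0.184, those of the same clone in the other replication at 0.0666 to 0.168, and those of different clones at -0.241 to -0.0401. The scripts were tested on simulated data.

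The comparison, the 30 gene lists and the named genes were chosen with earlier results of these data known. The rule named the 12 genes that rose and the 12 that fell most (mean of at least 10 CPM, one direction in 4 of 4 pairs), the 5 highest and 5 lowest differences from WT whose changes did not overlap, the same for a clone difference (none), up to 2 higher and 2 lower genes per list, and a set of regulators and markers, some of which are not reported here. Other genes in the text, such as list members under 10 CPM and those with promoters shown, were named after their values were seen. Promoters are RefSeq sequences of GRCh38.p14, with 11690 tested genes matched. Alternatives were no block, TMM factors, edgeR and DESeq2 (1.42.0), other filters, fewer libraries, summed replications, a 2-fold minimum and each library left out. The clone alone as block and the fits without series 1-2 or without the solvent libraries of 1-2 and 27-2 were chosen after seeing the data.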

Additional observations from a re-analysis of the deposited data

Results flagged for a closer look

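In 8 of 120 groups of 4 libraries looked at (6.67%), 1 library lay far from the other 3 by Dixon's ratio, which chance gives in about 1 group in 20. In mut cells at 24 h, series 1-2 had 6.85 CPM of *KCNJ15* against 15.35 to 17.52, 5.457 CPM of *VEGFC* against 8.341 to 8.544, and 93.67 CPM of *S100A8* against 44.81 to 49.23. Series 1-1 at 24 h had 19.36 CPM of *KANK4* against 13.11 to 13.69 and 24.37 CPM of *LBH* against 16.08 to 16.41. At 72 h, series 65-2 had 103.4 CPM of *MKI67* against 209.8 to 233. Series 65-1 at 72 h had 227.3 CPM of *CDH1* against 247.5 to 249.8 and 9.708 CPM of *LBH* against 14.13 to 15.2.

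For 10 genes the change from 24 h to 72 h differed between mut and WT cells in the test of that difference (limma, Benjamini-Hochberg). Mut minus WT was higher by 1.57 for *BGN* (adjusted p = 0.0158), 1.4 for *TMEM156* (0.0101), 1.3 for *AKR1C2* (5.93e-05), 1.24 for *AKR1C1* (0.000265) and 1.19 for *RDH16* (0.0382). It was -2.38 for *KLK10* (0.0133), -2.28 for *KLK7* (0.00601), -2.27 for *KLK5* (0.000393), -2.19 for *IGFL1* (0.000152) and -1.45 for *IL32* (0.0102).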

How the results depend on the processing

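The 1404 calls of mut cells became 195 with no replicate block, 441 with the clone alone as the block, 408 in the 8 libraries alone, 617 with replications of a clone summed and 169 with a 2-fold minimum. They ranged from 719 to 1508 when each library was left out. TMM factors gave 1396 (655 higher, 741 lower), edgeR 1326 and DESeq2 1701. The 120 differences from WT became 1 with no replicate block, 7 with the clone alone as the block, 32 summed, 35 with a 2-fold minimum, 329 by DESeq2 and 76 without series 1-2, and ranged from 36 (without WT 72 h 27-1) to 174 over left-out libraries. They were 69 without mut 72 h 65-1, 78 and 62 without mut 24 h 1-2 and 65-2, 59 and 43 without WT 24 h 27-1 and 2-2, and 48 without WT 72 h 2-1. The 2588 WT calls became 1164, 1623, 1707 and 220 with no replicate block, the clone alone, summed replications and a 2-fold minimum, and ranged from 1420 to 2499. The clone difference ranged from 0 to 716. The fits without a library, in the 8 libraries alone and on summed replications use fewer samples by construction. What else moved the counts was not tested.

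With no replicate block 73 of 119 values of named genes left the threshold, and none turned direction. The 119 include values that were not called in the reported fit and so could not leave it, such as those of *EPCAM*, *KRT5* and *MKI67*. Genes whose direction turned were not called in the reported comparison. *EGFR* was called without series 1-2 (-0.384, adjusted p = 0.0463, against 0.0766 to 0.793 over its other alternatives), and the others were called under no alternative. Over left-out libraries the log2 change was -0.119 to 0.143 for *EPCAM*, -0.29 to 0.0989 for *SNAI1*, -0.474 to 0.00233 for *CXCL8*, -0.159 to 0.112 for *SKIL*, -0.125 to 0.0391 for *KRT5*, -0.219 to 0.424 for *MYO7B*, -0.0638 to 0.232 for *KRT14* and -0.326 to 0.0415 for *EGFR*. Without series 1-2 it was -0.16 for *SKIL*, 0.0695 for *KRT5* and -0.00309 for *KRT14*. At this depth 3 counts correspond to 0.0551 to 0.0723 CPM.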
